A study of Mus musculus with 8 samples.

Results

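Transcripts of 10 genes that make, hold, activate and relay TGF-beta were followed in regulatory T (Treg) cells of mice. The 10 genes were Tgfb1, Lrrc32, Itgav, Itgb8, Furin, Tgfbr1, Tgfbr2, Smad3, Smad7 and Ski. They were chosen by name for their place in the pathway, with earlier results of these data known. All 10 were found among the 52459 gene symbols of the count table and were among the 15419 tested. RNA had been sequenced in 8 libraries, 2 for each of 4 groups, from CD4+CD25hi cells sorted from spleen and lymph nodes of several pooled female C57BL/6 mice per library. All of these mice were heterozygous for Foxp3-YFPcre, an allele that puts a yellow fluorescent Cre recombinase under the Foxp3 promoter, and both Stim1 and Stim2 carried loxP sites (Stim1 fl/fl Stim2 fl/fl). Since Foxp3 lies on the X chromosome, the same females held YFPcre- cells, which served as WT, and YFPcre+ cells, which are labelled Stim1/2-deficient (DKO in the plots), so that genotype was bound to use of the Cre allele. Cells of each genotype were left unstimulated or were cultured for 16 h with 1 µg/ml of antibodies to CD3 and CD28.

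STIM1 and STIM2 sense an empty calcium store in the endoplasmic reticulum and open the CRAC channel of the plasma membrane, the main route of calcium entry after engagement of the T cell receptor. TGF-beta1 is made as a proprotein, cut by the convertase furin, and kept latent because its propeptide stays wrapped around the cytokine. On Treg cells the latent form is held at the surface by GARP, the product of Lrrc32, and is freed by the integrin αvβ8, whose chains are encoded by Itgav and Itgb8. Active TGF-beta binds TGFBR2, which recruits and phosphorylates TGFBR1, and SMAD3 then carries the signal into the nucleus. SMAD7 and SKI restrain the signal.

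The libraries held 11851853 to 16306540 reads on genes, and the values below are normalized counts, that is reads divided by 1 size factor per library, in which 1 read was worth 0.759 to 1.48. Neither targeted gene was called between genotypes. In unstimulated cells Stim1 stood at 1139 and 1377 in WT and at 1538 and 1868 in libraries labelled Stim1/2-deficient, above the WT pair, and Stim2 at 906 and 908 against 904 and 744, below it. After stimulation Stim1 stood at 645 and 673 against 552 and 642, below the WT pair. The limma adjusted p for Stim1 and Stim2 lay between 0.236 and 0.827 in either state. A count over the whole gene cannot show the loss of the floxed exons alone, so these values do not check the labels, and "labelled libraries" stands below for libraries labelled Stim1/2-deficient. In unstimulated libraries, markers of macrophages and B cells moved with the labels. The 13 macrophage genes summed to 341 and 352 normalized counts in unstimulated WT libraries (C1qa and C1qc were at 0 in both). They summed to 12008 and 1851 in unstimulated labelled replicates 1 and 2, and to 228 to 358 after stimulation. Of the 12 macrophage genes tested, 12 lay above both WT libraries in both unstimulated labelled libraries. A list of 8 B cell genes summed to 306 to 323, to 3220 and 744, and after stimulation to 994 and 212 in WT and 1480 and 312 in labelled replicates 1 and 2. The stimulated B cell sum was thus higher in replicate 1 of each genotype. Only 1 of the 8 genes then lay above both WT libraries in both labelled ones. The 7 Treg and CD4 T cell genes summed to 86915 to 93406 in unstimulated WT libraries against 41194 to 48904, and to 95716 to 113728 against 69055 to 86914 after stimulation. In unstimulated cells all 7 were lower in labelled libraries, 6 of them without overlap. Ctla4 (37403 and 35119 against 6338 and 17333) and Ikzf2 (18953 and 19707 against 8398 and 9233) differed most in counts. Foxp3 (10001 and 8159 against 4947 and 4258) and Il2ra (11360 and 10408 against 7021 and 6821) differed too, while Cd3e stood at 3424 and 3294 against 3042 and 3156. Lists for dendritic cells, neutrophils, erythroid cells, CD8 T and NK cells, and platelets reached at most 894 in any library. The stromal list reached 5034, nearly all of it Pecam1 (5024). Unstimulated sums in WT against labelled libraries were 136 and 93 against 735 and 342 for neutrophils. They were 305 and 256 against 832 and 278 for CD8 T and NK cells, and 253 and 284 against 702 and 250 for dendritic cells. Erythroid (25.9 and 63.5 against 177 and 76.1) and platelet sums (58.3 and 54.7 against 64.0 and 76.1) were also higher. Unstimulated labelled replicate 1 thus stood apart, and results whose call or direction turned on it are given with and without it; the part that these transcripts had in any difference was not tested. In bulk RNA, fewer cells that express a gene and less RNA per cell cannot be told apart. Unstimulated libraries were run in a different sequencing lane from stimulated ones, so stimulation and lane cannot be told apart here, whereas both genotypes shared each lane. No group is labelled as cultured for 16 h without the antibodies, so the antibodies and the culture cannot be told apart either.

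Of the 10 genes, the 2 integrin chains differed most between genotypes in unstimulated cells, and Tgfbr2, the type II receptor, was the one with the highest fold change in the other direction. Their promoters, taken as the 250 bases upstream of a RefSeq start site on GRCm38.p6, are printed here because the 3 genes took such different courses. Itgb8 lies on chromosome 12 (minus strand; promoter at chr12:119238277-119238526), Itgav on chromosome 2 (plus strand; chr2:83724147-83724396) and Tgfbr2 on chromosome 9 (minus strand; chr9:116175364-116175613). Capitals mark matches, on either strand, to the core bound by NFAT factors (GGAAA) or to the SMAD box (CAGAC); the AP-1 site (TGANTCA) was searched too.
Itgb8: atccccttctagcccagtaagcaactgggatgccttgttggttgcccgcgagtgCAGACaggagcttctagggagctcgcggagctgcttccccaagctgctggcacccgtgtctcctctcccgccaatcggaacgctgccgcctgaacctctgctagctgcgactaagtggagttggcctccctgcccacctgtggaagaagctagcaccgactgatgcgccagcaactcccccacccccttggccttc
Itgav: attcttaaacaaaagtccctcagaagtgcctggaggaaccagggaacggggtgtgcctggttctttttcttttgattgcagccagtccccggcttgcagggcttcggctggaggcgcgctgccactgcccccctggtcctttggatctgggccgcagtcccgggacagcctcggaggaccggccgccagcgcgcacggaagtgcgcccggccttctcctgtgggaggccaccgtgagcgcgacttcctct
Tgfbr2: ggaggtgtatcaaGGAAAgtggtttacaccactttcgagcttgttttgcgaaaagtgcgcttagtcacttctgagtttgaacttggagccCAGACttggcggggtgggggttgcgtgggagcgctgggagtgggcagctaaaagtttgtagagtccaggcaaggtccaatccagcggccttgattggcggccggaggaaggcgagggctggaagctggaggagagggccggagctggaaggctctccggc
Of the other members, Tgfb1 (chr7:25687002-25705077), Lrrc32 (chr7:98489305-98501831) and Furin (chr7:80389194-80405441) lie on chromosome 7, Tgfbr1 (chr4:47353222-47414926) and Ski (chr4:155154075-155222535) on chromosome 4 and Smad3 (chr9:63646766-63757994) on chromosome 9, in the same build. The Itgb8 window held 1 SMAD box, which started 196 bases before the start site, and no NFAT core. The Itgav window held neither. The Tgfbr2 window held 1 NFAT core at 237 bases and 1 SMAD box at 160 bases before the start site. None of the 3 held the AP-1 site. Of 32851 RefSeq promoter windows of this length, 55.6% held GGAAA, 42.2% CAGAC and 6.75% TGANTCA, so that short matches of this kind are common, and a window without them says only that these letters are not in it.

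**Figure D1:**
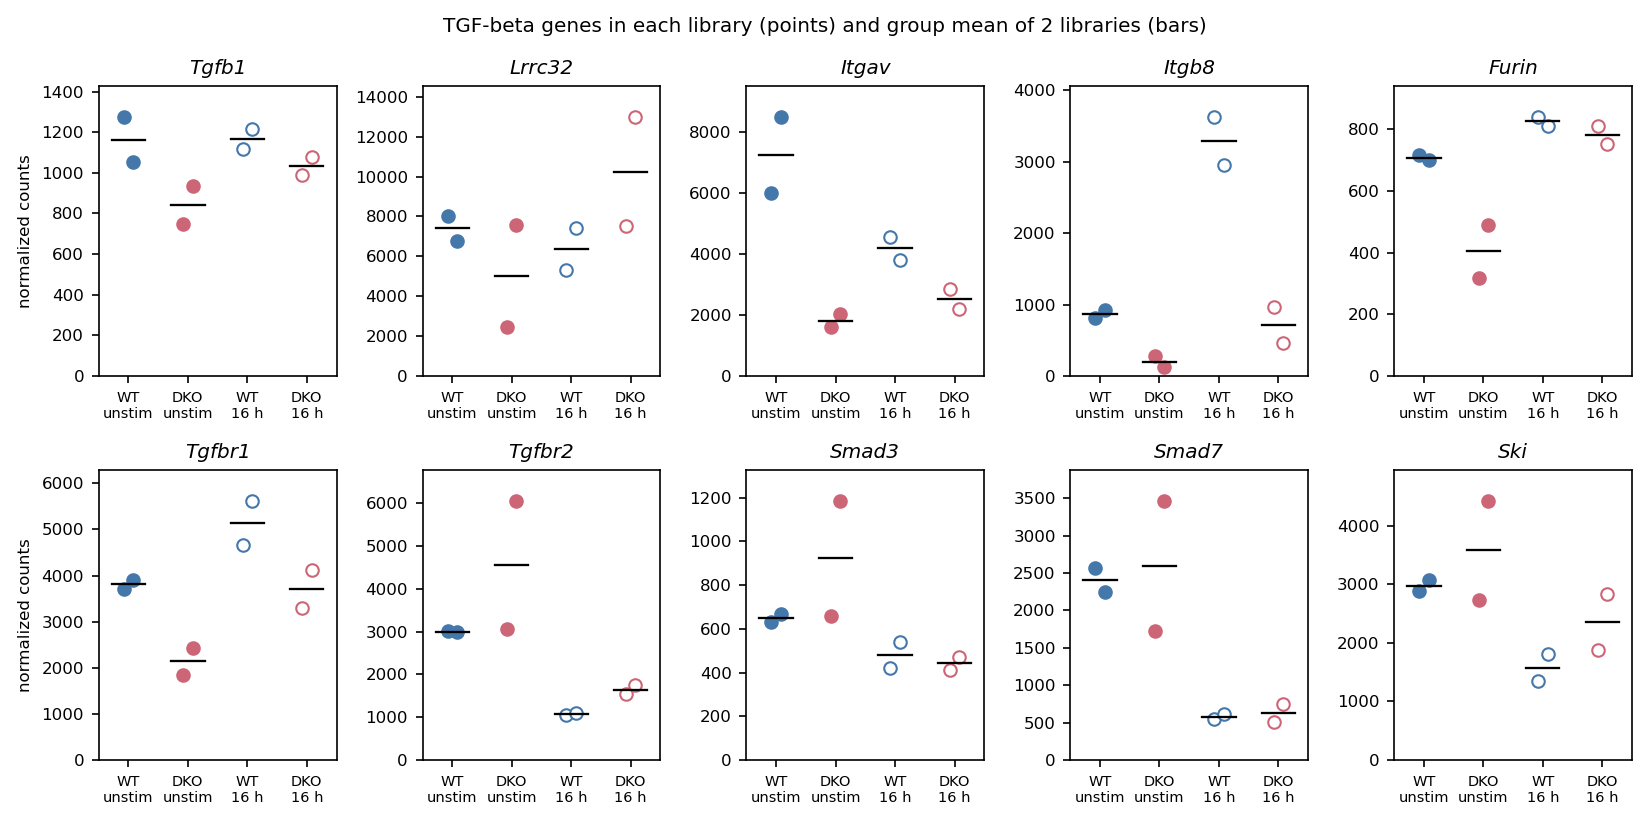
Normalized counts (vertical axes, from 0, 1 scale per gene) of the 10 genes in each of the 8 libraries; each point is a library, filled if unstimulated and open if stimulated for 16 h, blue for WT and red for libraries labelled Stim1/2-deficient (DKO), and each bar is the mean of 2 libraries. Itgb8 reached 2955 and 3626 in stimulated WT libraries and did not exceed 971 in any other group, and Smad7 was at 747 or less in all 4 stimulated libraries and at 1725 or more in all 4 unstimulated ones.

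In unstimulated cells, the transcripts of both chains of αvβ8 and of TGFBR1 were lower in labelled than in WT libraries, and no member was called higher. A gene was called at a limma adjusted p under 0.05 (Benjamini-Hochberg over all 15419 genes tested) and a change of more than 1.5-fold, and 3 of the 10 members passed, against 4.73% of all genes (3.35% lower and 1.38% higher, or 517 and 213 genes, which became 332 and 286 with equal upper quartiles). The median log2 fold change of the 10 was -0.62, and that of all tested genes -0.01. Since the members were chosen with earlier results of these data known, such comparisons with all genes do not test the list. Both labelled libraries lay below both WT libraries for 5 members and above them for 1, where 27.1% and 26.5% of all genes did so. Those below were Tgfb1, Itgav, Itgb8, Furin and Tgfbr1, and the one above was Tgfbr2.

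Itgb8, which encodes the β8 chain that pairs only with αv, was counted at 813 and 925 in the unstimulated WT pair and 276 and 122 in labelled replicates 1 and 2. The groups did not overlap, and the lowest value came from labelled replicate 2. Its counts were 4.71-fold lower (log2 fold change -2.24, standard error 0.40, limma adjusted p = 0.0181, 2 libraries against 2). Without labelled replicate 1 the log2 fold change was -2.82 (limma adjusted p = 0.00599), and without labelled replicate 2 it was -1.65 (limma adjusted p = 0.0301). The call was lost without WT replicate 3 (log2 fold change -2.33, adjusted p = 0.196 by limma) or WT replicate 4 (-2.14, adjusted p = 0.108 by limma), although the value hardly moved.

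Itgav encodes the αv chain, which serves several integrins besides αvβ8. It reached 5995 and 8484 normalized counts in the unstimulated WT pair but only 1590 and 2037 in the labelled pair. Every WT value lay far above every labelled one. The difference was 3.96-fold (log2 fold change -1.99, standard error 0.23, limma adjusted p = 0.00499) and was called in each of the 8 other fits tried on these libraries. Without labelled replicate 1 it was -1.81 on the log2 scale (limma adjusted p = 0.00599), and without WT replicate 4 it was -1.74 and no longer passed (limma adjusted p = 0.0563). An overlapping pseudogene, Dnmt3l-ps1, was counted separately and did not exceed 186 normalized counts.

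After 16 h of stimulation the Itgb8 counts of the genotypes were again far apart, though the difference was not called. The WT pair counted 3626 and 2955 and the labelled pair 971 and 469, and the stimulated labelled pair lay on either side of the unstimulated WT values. The groups did not overlap. The log2 fold change was -2.28 (95% interval -3.17 to -1.39), and the limma adjusted p of 0.0537 missed the threshold. Other fits called it in 5 of 9 cases, DESeq2 among them (adjusted p = 1.6e-06, all 8 libraries), but edgeR did not call it (adjusted p = 0.077). Both labelled libraries lay below both WT ones for 5 members (23.1% of all genes) and above them for 3 (24.3%). None of the 10 members was called in stimulated cells by limma, where 0.272% of all genes were (0.11% lower, 0.162% higher). At an unadjusted p under 0.05, 3 members (Itgb8, Itgav and Tgfbr1) passed against 13.7% of all genes, and DESeq2 called 1, Itgb8, beside 550 of all genes.

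Itgav after stimulation stood at 4567 and 3812 in the WT pair and at 2859 and 2201 in the labelled pair, with no overlap. Its log2 fold change was -0.73 (95% interval -1.25 to -0.22, limma adjusted p = 0.18). The 2 states thus gave -1.99 and -0.73, and the difference between them, the interaction of genotype and stimulation, was 1.25 on the log2 scale (standard error 0.33, unadjusted p = 0.00312, limma adjusted p = 0.556). For Itgb8 the interaction was -0.04 (95% interval -1.30 to 1.22). No member was called for the interaction, where limma called 0 of all genes (0%), edgeR 0 and DESeq2 50, none of them a member, and at an unadjusted p under 0.05 limma found 3 members (Itgav, Furin and Lrrc32) beside 8.15% of all genes.

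**Figure D2:**
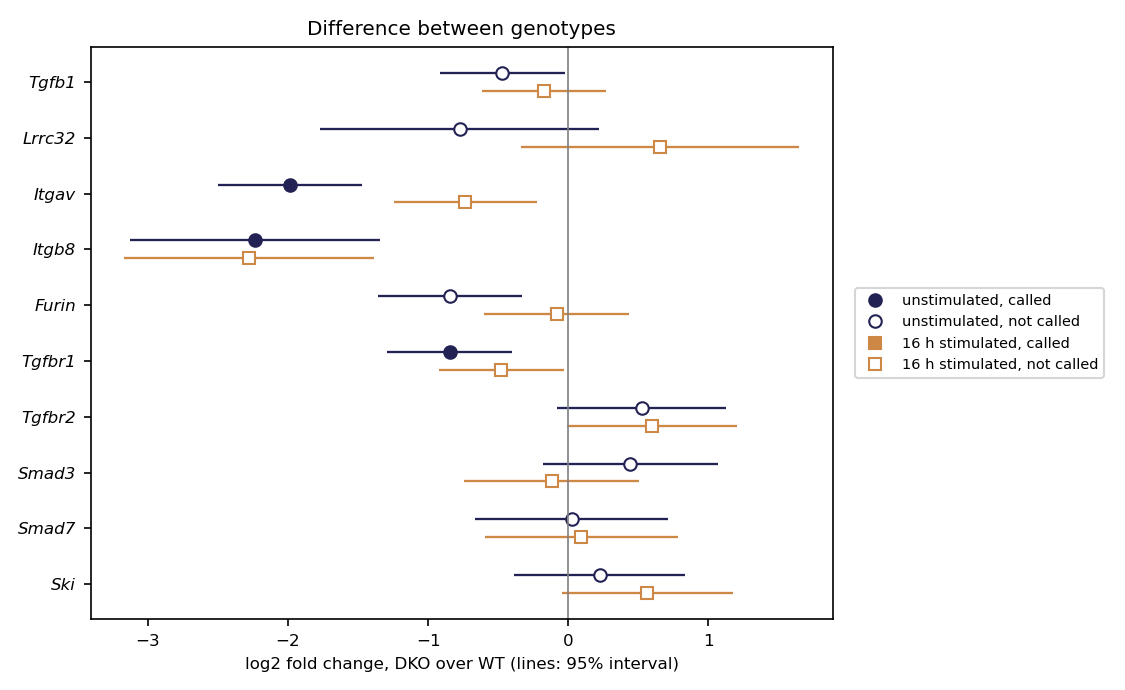
Log2 fold change of labelled Stim1/2-deficient (DKO) over WT libraries (horizontal axis) with its 95% interval from limma for each of the 10 genes, in unstimulated (circles) and 16 h stimulated cells (squares); filled symbols passed the test. Itgav, Itgb8 and Tgfbr1 are filled in unstimulated cells at -1.99, -2.24 and -0.85, and no symbol is filled in stimulated cells.

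Tgfb1, the ligand itself, was counted at 1274 and 1053 in the unstimulated WT pair and 748 and 935 in the labelled pair. The groups did not overlap but lay close, and the log2 fold change of -0.47 (95% interval -0.91 to -0.03) was not called (limma adjusted p = 0.202). After stimulation the WT pair counted 1115 and 1216 and the labelled pair 987 and 1080, which gave -0.17 (95% interval -0.62 to 0.27, limma adjusted p = 0.764).

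Furin, which cuts the TGF-beta proprotein among many other substrates, was counted at 717 and 699 in the unstimulated WT pair and 319 and 489 in the labelled pair. The labelled values lay below the WT pair, the lower of them in replicate 1. Its log2 fold change of -0.84 (standard error 0.23) missed the threshold (limma adjusted p = 0.0706). It was -0.53 without labelled replicate 1 (limma adjusted p = 0.147) and -1.15, which passed, without labelled replicate 2 (limma adjusted p = 0.012), and DESeq2 called it with all libraries (adjusted p = 0.0399). In stimulated cells WT stood at 839 and 812 and the labelled pair at 809 and 751, with a log2 fold change of -0.08 (95% interval -0.60 to 0.43).

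For Lrrc32, 1 library decided the direction. The GARP transcript stood at 8043 and 6763 in the unstimulated WT pair but at 2445 and 7591 in labelled replicates 1 and 2. Labelled replicate 2 lay within the WT pair and replicate 1 far below it. The log2 fold change of -0.78 (95% interval -1.77 to 0.22, limma adjusted p = 0.344) became 0.04 without labelled replicate 1 (limma adjusted p = 0.954) and -1.59 without labelled replicate 2 (limma adjusted p = 0.0198). After stimulation the WT pair counted 5296 and 7414 and the labelled pair 7503 and 12979, which touched without overlap (log2 fold change 0.66, 95% interval -0.34 to 1.65, limma adjusted p = 0.578).

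The 2 receptor genes pointed in opposite directions. Tgfbr1, the type I receptor kinase that phosphorylates SMAD2 and SMAD3, was counted at 3708 and 3907 in the unstimulated WT pair and 1850 and 2424 in the labelled pair. The groups stood apart, and the counts were 1.797-fold lower (log2 fold change -0.85, standard error 0.20, limma adjusted p = 0.0447). That call stood close to the threshold: it was kept in 3 of 8 other fits and was lost without labelled replicate 1 (-0.65, limma adjusted p = 0.0807), without WT replicate 3 (-0.88, limma adjusted p = 0.319) and without WT replicate 4 (-0.81, limma adjusted p = 0.188). In stimulated cells the WT counts of 4659 and 5616 and the labelled counts of 3287 and 4114 did not overlap (log2 fold change -0.48, 95% interval -0.92 to -0.03, limma adjusted p = 0.327).

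Tgfbr2, the ligand-binding type II receptor, was counted at 3004 and 2991 in the unstimulated WT pair and 3071 and 6053 in labelled replicates 1 and 2. Replicate 1 lay just above the WT pair and replicate 2 far above it (log2 fold change 0.52, 95% interval -0.08 to 1.13, limma adjusted p = 0.291). Without labelled replicate 1 the value was 1.01 and passed (limma adjusted p = 0.0107), and without labelled replicate 2 it was 0.03. After stimulation, 1059 and 1102 in WT stood against 1534 and 1748 in labelled libraries, again without overlap (log2 fold change 0.60, 95% interval -0.01 to 1.21, limma adjusted p = 0.368).

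The genes that carry the signal inward or restrain it were not called between genotypes in either state. Smad3, a receptor-activated SMAD, was counted at 632 and 666 in the unstimulated WT pair and 660 and 1185 in the labelled pair (log2 fold change 0.45, 95% interval -0.18 to 1.07). For Smad7, an inhibitory SMAD that TGF-beta itself induces, 2564 and 2250 stood against 1725 and 3462 (0.02, 95% interval -0.66 to 0.71), and for Ski, a corepressor of SMAD targets, 2878 and 3064 stood against 2732 and 4417 (0.23, 95% interval -0.39 to 0.84). In all 3 genes labelled replicate 2 was the highest of the unstimulated libraries and the labelled pair reached into or across the WT range. Without that library the log2 fold change of Smad7 was -0.48 and that of Ski -0.12, and neither passed. In stimulated cells the log2 fold changes were -0.12 for Smad3, 0.09 for Smad7 and 0.57 for Ski, of which only Ski had both labelled libraries (1874 and 2838) above both WT ones (1342 and 1809).

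Stimulation for 16 h was followed by lower Smad7, Tgfbr2, Ski and Itgav and higher Itgb8 transcripts in WT cells, and by lower Smad7, Tgfbr2 and Smad3 and higher Itgb8, Furin and Tgfbr1 in labelled cells. In WT libraries 5 members were called, 4 lower and 1 higher, against 23.3% of all genes (13.1% lower, 10.2% higher), and in labelled libraries 6, 3 lower and 3 higher, against 25% (12% lower, 13% higher). At an unadjusted p under 0.05, 5 members passed in WT (37.5% of all genes) and 7 in labelled libraries (38.9%). Without overlap, 5 members lay below and 3 above their unstimulated pair in WT (36% and 35% of all genes), and 3 lay below and 5 above in labelled libraries (30.6% and 30.8%). Median log2 changes of the members were -0.34 in WT and 0.39 in labelled libraries, beside 0.01 and -0.03 over all genes. The stimulation contrasts each compare 2 libraries with 2 and share no library with each other. In limma, however, both rest on the same spread for each gene, estimated over all 8 libraries.

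Smad7 changed most. WT counts went from 2564 and 2250 to 547 and 611, and labelled counts from 1725 and 3462 to 511 and 747. In both genotypes the stimulated pair lay far below the unstimulated pair. The log2 change was -2.05 in WT (limma adjusted p = 0.00236) and -1.98 with the label (limma adjusted p = 0.00215), called in each fit that left out 1 library and in all other fits, and the interaction was 0.07 (95% interval -0.90 to 1.04).

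Tgfbr2 fell from 3004 and 2991 to 1059 and 1102 in WT libraries (log2 change -1.47, limma adjusted p = 0.00519) and from 3071 and 6053 to 1534 and 1748 in labelled ones (-1.40, limma adjusted p = 0.00576). The WT call was lost by a narrow margin without WT unstimulated replicate 4 (-1.47, limma adjusted p = 0.0502). Ski fell in WT libraries (-0.93, limma adjusted p = 0.0346), a call lost whenever 1 of the 4 libraries was left out (limma adjusted p 0.0805 to 0.22). In labelled libraries the 2 states of Ski overlapped and -0.59 was not called (limma adjusted p = 0.141), but without unstimulated labelled replicate 1 it was -0.94 and passed (limma adjusted p = 0.026). Smad3 fell in labelled libraries from 660 and 1185 to 411 and 473 (-1.002, limma adjusted p = 0.0266), which was lost without unstimulated replicate 2 (-0.58, limma adjusted p = 0.119) or either stimulated replicate, and in WT libraries the change was -0.44 (95% interval -1.06 to 0.18).

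Itgb8 rose in both genotypes although its level differed between them. WT counts went from 813 and 925 to 3626 and 2955 (3.77-fold, log2 change 1.92, limma adjusted p = 0.00879), and labelled counts from 276 and 122 to 971 and 469 (3.67-fold, log2 change 1.88, limma adjusted p = 0.00859). Stimulated libraries lay above unstimulated ones without overlap in each genotype. The WT call was lost, with values of 1.77 to 2.06, whenever 1 of the 4 WT libraries was left out (limma adjusted p 0.0528 to 0.0704), and the labelled call was lost without stimulated replicate 1 (1.35, limma adjusted p = 0.0542).

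Its partner Itgav did not follow it. Itgav fell in WT libraries from 5995 and 8484 to 4567 and 3812 (log2 change -0.77, limma adjusted p = 0.0354), and labelled counts went from 1590 and 2037 to 2859 and 2201 (0.48, 95% interval -0.03 to 0.99, limma adjusted p = 0.152). Both stimulated WT libraries lay below both unstimulated ones, and both stimulated labelled libraries lay above theirs. The WT call was lost whenever 1 of the 4 libraries was left out (limma adjusted p 0.0565 to 0.27). Per kilobase of transcript, the ratio of Itgav to Itgb8 counts was 8.79 and 10.9 in unstimulated WT libraries and 6.87 and 20.0 in labelled ones, and after stimulation 1.5 and 1.54 in WT and 3.51 and 5.60 in labelled libraries. The stimulated WT libraries thus came nearest to equal levels of both chains, and the stimulated labelled libraries lay between these and the unstimulated ones.

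Furin rose in labelled libraries from 319 and 489 to 809 and 751 (log2 change 0.98, limma adjusted p = 0.013) and Tgfbr1 from 1850 and 2424 to 3287 and 4114 (0.80, limma adjusted p = 0.0173). Without unstimulated labelled replicate 1 both remained called, at 0.67 and 0.60 (limma adjusted p = 0.0281 and 0.0393). Furin was lost without stimulated labelled replicate 1 (0.93, limma adjusted p = 0.0597) and Tgfbr1 without replicate 2 (0.63, limma adjusted p = 0.102). In WT libraries the changes were 0.22 for Furin and 0.43 for Tgfbr1, neither of them called (limma adjusted p = 0.519 and 0.151). Tgfb1 changed by 0.01 in WT (95% interval -0.44 to 0.45) and by 0.30 in labelled libraries (95% interval -0.14 to 0.75). For Lrrc32 the WT change was -0.24 and the labelled one 1.20 (95% interval 0.20 to 2.19, limma adjusted p = 0.0754), and the labelled value was 0.38 without unstimulated replicate 1 and 2.01 without unstimulated replicate 2.

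**Figure D3:**
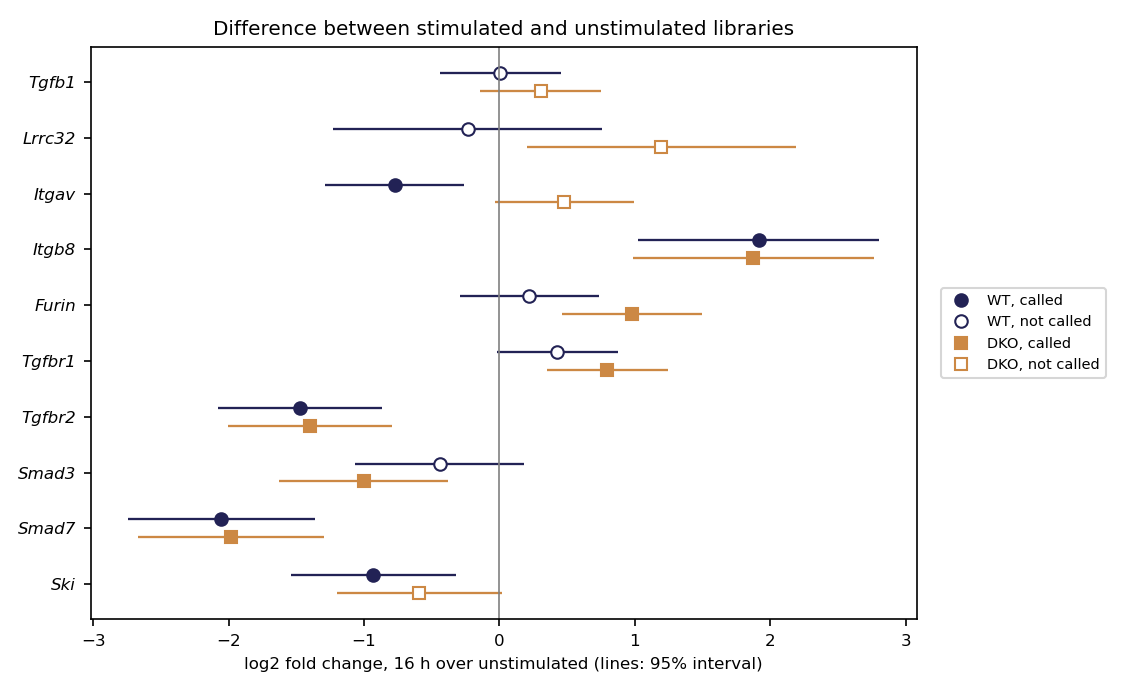
Log2 fold change of 16 h stimulated over unstimulated libraries (horizontal axis) with its 95% interval from limma for each of the 10 genes, in WT (circles) and labelled Stim1/2-deficient (DKO) libraries (squares); filled symbols passed the test. Smad7 and Tgfbr2 are filled on the left and Itgb8 on the right in both genotypes, and Itgav lies at -0.77 in WT and 0.48 in labelled libraries.

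Levels can be set beside each other between genes only per length, and they were taken as normalized counts per kilobase of the longest GENCODE vM1 transcript. Lrrc32 was the highest of the 10 genes in every group, with means of 1939 in unstimulated WT, 1315 in unstimulated labelled, 1665 in stimulated WT and 2683 in stimulated labelled libraries. In unstimulated WT libraries Itgav came next (1026), followed by Tgfbr1 (661), then by Smad7 (563), Ski (538) and Tgfb1 (535), whose libraries overlapped, by Tgfbr2 (371), Furin (163), Smad3 (128) and, lowest, Itgb8 (103). Itgb8 was also the lowest in unstimulated (23.6) and stimulated labelled libraries (85.7, with overlap with Smad3 at 86.8), whereas in stimulated WT libraries, at 392, it stood above Ski, Furin, Smad7, Tgfbr2 and Smad3. Itgav stood at 257 in unstimulated labelled libraries, below Ski (647), Smad7 (606), Tgfbr2 (564), Tgfb1 (387) and Tgfbr1 (371).

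Another 78 genes of the pathway, all found in the table, were listed by role, and 60 of them had the mean of 10 normalized counts needed for a test. In unstimulated cells 3 of the 60 were called between genotypes (5%, beside 4.73% of all genes), and in stimulated cells 2 (3.33%, beside 0.272%). DESeq2 called 8 and 3 of them, beside 1338 and 550 of all 15419 genes. EdgeR called 1 and 0, beside 484 and 1 of all genes. Itgae, the αE integrin chain of CD103 and a gene that TGF-beta is known to induce in T cells, was lower in both states. Unstimulated WT libraries counted 3859 and 3408 of it and labelled ones 650 and 310, and after stimulation the pairs counted 1218 and 1609 and 322 and 136. All labelled libraries lay below all WT libraries of either state (log2 fold change -3.01, limma adjusted p = 0.00803, and -2.74, limma adjusted p = 0.0392), and without unstimulated labelled replicate 1 it was -3.54 (limma adjusted p = 0.00441). Itgb3, the β3 chain and another partner of αv, was higher in labelled libraries: 1927 and 1321 against 949 and 771 unstimulated (0.90, limma adjusted p = 0.048), and 2098 and 1922 against 664 and 688 stimulated (1.57, limma adjusted p = 0.0392). The unstimulated call on Itgb3 was lost without labelled replicate 1 (0.63, limma adjusted p = 0.102), as was that on Bmpr2, a receptor for bone morphogenetic proteins (-0.83, limma adjusted p = 0.0495, and -0.70, limma adjusted p = 0.0966, without it). Without that library 4 of the 60 were called (6.67%, beside 5.05% of all genes in the same fit), namely Itgae, Itgb1 (-1.75) and Fkbp1a (-0.95) lower and Smurf2 (0.81) higher.

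The remaining roles held no call between genotypes in either state: ligands and the latent complex (3 tested), other SMADs (4), SMAD cofactors, corepressors and adaptors (11), ubiquitin and phosphatase control (13) and the TAK1 branch (5). Of these 36 genes, 5 unstimulated and 1 stimulated had an unadjusted p under 0.05 by limma (13.9% and 2.78%, beside 22% and 13.7% of all genes). EdgeR called 0 in either state (484 and 1 of all genes), and DESeq2 called 1 unstimulated (Smurf2) and 0 stimulated (1338 and 550 of all genes). Nrros, which holds latent TGF-beta on myeloid cells, was counted at 344 and 362 in the unstimulated WT pair. In unstimulated labelled replicates 1 and 2 it was counted at 656 and 509 (0.71, limma adjusted p = 0.0896). After stimulation Nrros stood at 500 and 528 in WT and at 517 and 483 in labelled libraries. Unstimulated labelled replicate 1 also held most macrophage transcripts, and their part in the Nrros counts was not tested. Ltbp3, a latent TGF-beta binding protein, did not exceed 11.8 in any library and was not tested. Smad2 and Smad4, the other SMAD that TGFBR1 phosphorylates and the shared partner, differed between genotypes by -0.05 and 0.26 unstimulated and by 0.11 and 0.25 stimulated on the log2 scale. Skil, a relative of Ski (-0.23 and 0.39), and Pmepa1, a TGF-beta target that dampens SMAD signals (-0.11 and -0.02), did not pass either. Without unstimulated labelled replicate 1 the unstimulated values were 0.31 for Smad2, 0.75 for Smad4, 0.48 for Skil and 0.71 for Pmepa1, none of them called, so that the sign of Smad2, Skil and Pmepa1 turned on that library. Foxp3, the transcription factor that defines Treg cells, was counted at 10001 and 8159 in WT and 4947 and 4258 in labelled libraries when unstimulated, and 8525 and 11918 and 4474 and 7253 when stimulated, without overlap, but was not called by limma (-0.98, limma adjusted p = 0.0591, and -0.82, limma adjusted p = 0.177). DESeq2 called it in unstimulated cells (adjusted p = 0.00875), and edgeR did not (adjusted p = 0.0775).

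**Figure D4:**
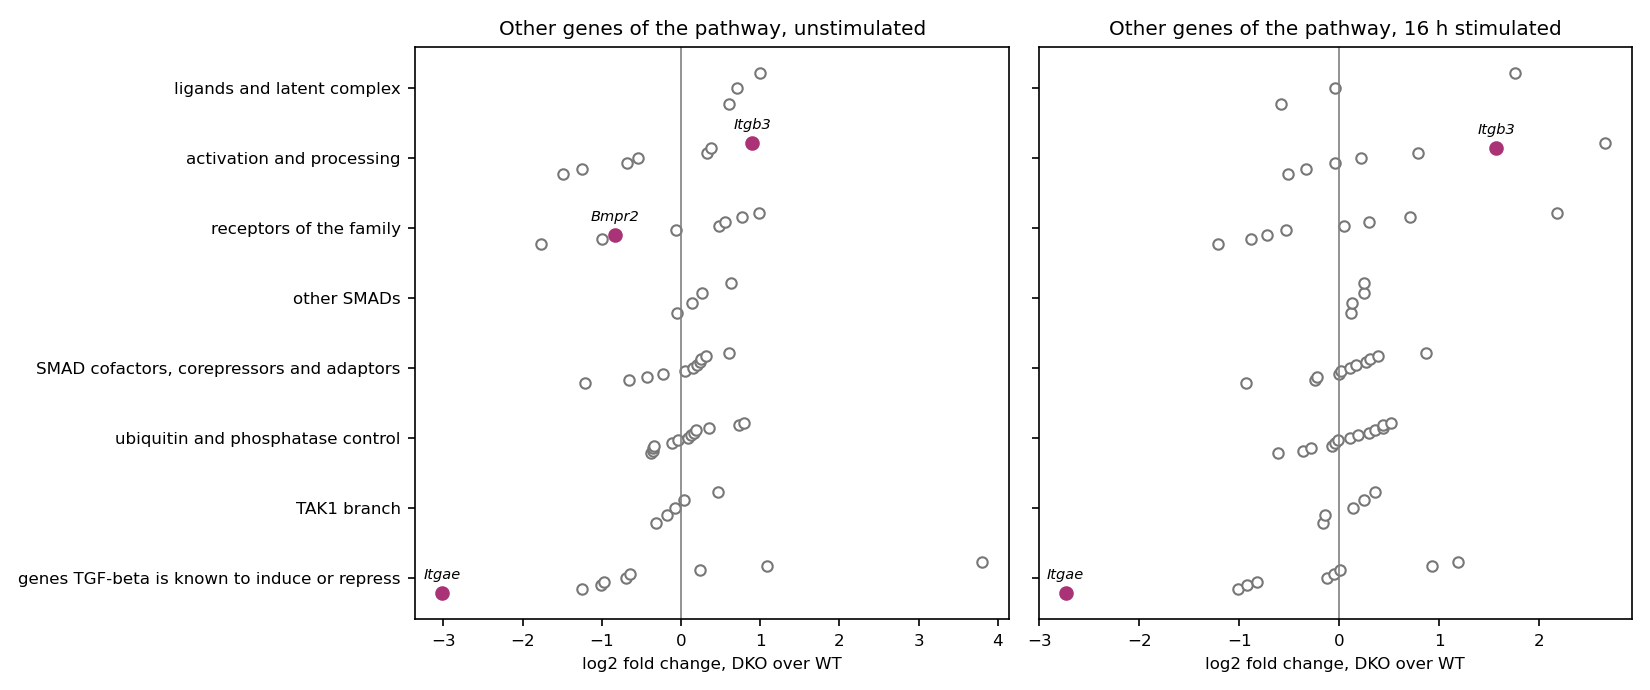
Log2 fold change of labelled Stim1/2-deficient (DKO) over WT libraries (horizontal axes, which differ in scale range) of the 60 other tested genes of the pathway, grouped by role, in unstimulated and 16 h stimulated cells; each point is a gene, and filled, named points passed the test. Itgae lies at -3.01 and -2.74 and Itgb3 at 0.90 and 1.57, and the open point at 3.80 on the left is Tgfbi, whose unstimulated WT counts were 5.4 and 1.48.

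With stimulation, 13 of the 60 were called in WT libraries, 11 lower and 2 higher (21.7%, beside 23.3% of all genes), and 17 in labelled libraries, 14 lower and 3 higher (28.3%, beside 25%). Of the 13 genes listed under ubiquitin and phosphatase control, 3 were called lower in WT and 5 in labelled libraries (23.1% and 38.5%, beside 13.1% and 12% of all genes). That list also held Bambi, Ldlrad4 and Pmepa1, which damp the receptor or SMADs, and the 3 called in WT were Bambi, Ldlrad4 and Smurf2. The shares thus do not stand for ubiquitin and phosphatase genes alone. Nor was this role the only one with many calls. Of the 11 tested SMAD cofactors, corepressors and adaptors, 4 were called lower in WT and 5 in labelled libraries, and 1 higher in each. In every remaining role, 0 to 2 genes were called lower in either genotype. Bambi, a decoy receptor, went from 94.97 and 108 normalized counts to 11.7 and 12.9 in WT (-2.94, limma adjusted p = 0.00307), and labelled counts went from 89.1 and 150 to 6.35 and 9.29 (-3.74, limma adjusted p = 0.000894). Ldlrad4, which limits access of SMADs to the receptor, fell by 1.52 and 1.53 on the log2 scale (limma adjusted p = 0.014 and 0.0123). Smurf2, a ubiquitin ligase that works with SMAD7, fell by 0.86 and 1.07 (limma adjusted p = 0.0096 and 0.00316). The coactivator Crebbp, the ubiquitin ligase Trim33, the adaptor spectrin Sptbn1 and the transcription factor Runx1 were also lower in both, with log2 changes between -0.72 and -1.43.

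The immunophilin Fkbp1a, which binds the type I receptor, and the TAK1 branch ligase Traf6 were higher in both genotypes. Fkbp1a gave 0.89 (WT) and 1.32 (labelled, limma adjusted p = 0.024 and 0.00415), and Traf6 gave 0.85 and 1.07 (limma adjusted p = 0.0194 and 0.00696). With all libraries, called in WT alone were the corepressor Tgif1 (-2.50, limma adjusted p = 0.00342), Itgae (-1.37), Itgb1 (-1.01) and the protease Mmp9, which had 22.7 and 17.7 normalized counts before and 0.78 and 0 after stimulation. Called in labelled libraries alone were Ep300, Nedd4l, Tab3, Tgfbr3, Wwp1 and Zfyve9, all lower with log2 changes between -0.64 and -2.14, Smad5 (0.71), and Tgfbi. Tgfbi, a TGF-beta-induced matrix protein, had 179 and 16.0 normalized counts in unstimulated labelled replicates 1 and 2 and 3.97 and 0.84 in stimulated ones, and it was not called without unstimulated replicate 1 (limma adjusted p = 0.201), where 22 of the 60 were called (36.7%, beside 27.4% of all genes). Zfyve9 lost its call there too (-1.77, limma adjusted p = 0.161). Calls were gained by Tgif1, which moved from -1.12 (limma adjusted p = 0.0742) to -1.99 (limma adjusted p = 0.000135), by Skil (-1.08), Smad4 (-1.20) and Itgb3 (0.60), and by Cdkn1a, Smurf1 and Usp15. None of the 60 was called for the interaction (0% of all genes), edgeR and DESeq2 also called 0, and 3 had an unadjusted p under 0.05 by limma, so that a call in 1 genotype alone is not shown to differ between genotypes.

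Across the 8 libraries, the genes whose log2 values followed the called members most closely were Zc3h12c (Pearson r = 0.973), Ppfibp1 (0.972) and Sdcbp2 (0.967) for Itgav, Myo5a (0.989), Ptger2 (0.987) and Ppip5k2 (0.984) for Itgb8, and Ywhaq (0.982), Rragd (0.974) and Ssx2ip (0.968) for Tgfbr1. These values describe 8 points that fall into 4 groups and share libraries and lanes, and the genes were the 3 highest of 15419 for each member.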

How the data were processed

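Each library came from pooled spleen and lymph node Treg cells of several mice, and p-values measure the spread between such pools. The deposited signal values (normalized counts) were checked to be whole reads scaled by the authors with a factor of its own for each library, and dividing by that factor gave back the reads for 100% of the values, to within 0.006 normalized counts. The methods name Bowtie, the NCBIM37 assembly, HTSeq and removal of PCR duplicates, whereas the submitters' processing notes name STAR 2.7, DESeq2 and mm10. Of the 52459 symbols, 28801 matched GENCODE vM1 on NCBIM37 and 35095 matched RefSeq on GRCm38.p6, from which positions and promoters were taken, while transcript lengths are of GENCODE vM1. The sources also disagree on whether the kit marked strand, so reads of genes that overlap a member (7 of the 10 have such a gene model) may not be told apart.

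A linear model with 4 group means was fitted by limma 3.58.1 (lmFit, eBayes with a trend, R 4.3.3) to log2(value + 1), leaving out genes whose mean fell under 10. A fold change on this scale understates the change of low genes. The 2-sided p-values of each of the 5 contrasts were adjusted over all genes tested (Benjamini-Hochberg). As alternatives, a pseudocount of 0.1 or 5, no filter beyond a value above 0, equal upper quartiles, quantile normalization, edgeR 4.0.16 and DESeq2 1.42.0 on recovered reads, a replicate block and the omission of each library in turn were tried, in which a lone library is assumed to vary like the other groups. The scripts were tested on simulated data. DESeq2, which the methods name, is an alternative because the values were deposited normalized. Named genes are the 10 members, called genes of a pathway list, 8 genes of that list whatever their values (Itgae, Skil, Pmepa1, Smad2, Smad4, Nrros, Ltbp3 and Foxp3) and the 3 genes most like each member called between genotypes. Itgb1, Fkbp1a, Smurf2, Cdkn1a, Smurf1 and Usp15 without 1 library, and Ctla4, Ikzf2, Il2ra and Cd3e, were named after their values were seen. Members and lists were chosen with earlier results of these data known.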

Additional observations from a re-analysis of the deposited data

Results flagged for a closer look

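The stimulation effect on Itgav, the αv integrin chain, went opposite ways in the 2 genotypes: both stimulated WT libraries lay below both unstimulated WT libraries, and both stimulated libraries labelled Stim1/2-deficient lay above both unstimulated labelled ones. Over all genes tested, 36% lay below without overlap in WT and 30.8% lay above in labelled libraries, and the share that did both was not counted. The log2 change was -0.77 in WT (limma adjusted p = 0.0354), a call lost whenever 1 of the 4 libraries was left out. In labelled libraries it was 0.48 and was not called (limma adjusted p = 0.152). The difference between these changes was 1.25 (standard error 0.33). Tested as an interaction in limma it had an unadjusted p of 0.00312 and an adjusted p of 0.556, and the adjusted p lay between 0.111 and 0.648 in 7 other fits. The difference was 1.002 to 1.503 with 1 library left out.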

How the results depend on the processing

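With 2 libraries a group, the counts of calls moved with the library left out: between genotypes in unstimulated cells 0 to 5 members and 8 to 1298 of all genes (730 with all libraries), in stimulated cells 0 to 1 and 0 to 762 (42), for the interaction 0 to 1 and 0 to 196 (0), for stimulation in WT 1 to 2 and 971 to 1262 (5 and 3593), and in labelled libraries 3 to 7 and 2599 to 4229 (6 and 3852). The cause was not tested, but each such fit had 1 library fewer. Without unstimulated labelled replicate 1 the unstimulated genotype contrast called Itgav, Itgb8 and Tgfbr2, and without WT replicate 4 none.

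For all genes called between genotypes in unstimulated cells, testing every gene with a value above 0 gave 362, edgeR 484, DESeq2 1338 and DESeq2 on the 4 libraries 1134. In stimulated cells a pseudocount of 0.1 gave 8, one of 5 gave 74 (1 member, Itgb8), every gene above 0 gave 1, quantile normalization 202 (1 member), edgeR 1, DESeq2 550 (1 member) and DESeq2 on the 4 libraries 668 (3 members, Itgav, Itgb8 and Tgfbr2). DESeq2 called 50 genes for the interaction. Testing every gene above 0 left 3 members for stimulation in WT. The cause of these shifts was not tested beyond the number of genes entered.

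The labels do not say that equal replicate numbers mark a shared source. Deviations of equally numbered libraries correlated at r = 0.167 for the stimulated genotypes and 0.257 for the labelled libraries across genes. With a replicate block, 88 genes and 1 member, Itgb8, were called between genotypes in stimulated cells, and 8 members for stimulation in labelled libraries, Lrrc32 and Ski being added. Unstimulated genotypes and WT states share no numbers, so no block was possible there.

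Over the single members, 547 values kept their direction and their side of the threshold, 35 lost a call, 21 gained one and 27 changed sign, none of them a called value. With 1 library left out, the log2 values of those that changed sign ran, between genotypes in unstimulated cells, from -0.48 to 0.53 for Smad7, -1.59 to 0.042 for Lrrc32 and -0.12 to 0.57 for Ski, and in stimulated cells from -0.29 to 0.059 for Smad3 and -0.18 to 0.37 for Smad7. For stimulation in WT they ran from -0.48 to 0.0075 for Lrrc32 and -0.13 to 0.145 for Tgfb1, and for the interaction from -0.63 to 0.55 for Itgb8, -0.41 to 0.565 for Tgfbr2, -0.43 to 0.57 for Smad7 and -0.0073 to 0.69 for Ski. With all libraries, Lrrc32 was 0.33 under quantile normalization and Tgfb1 -0.0048 under DESeq2 for stimulation in WT, and for the interaction Tgfbr2 was -0.078 under equal upper quartiles, -0.0017 under edgeR and -0.017 under DESeq2, and Smad7 -0.084 and -0.0035 under the first and last of these. Equal upper quartiles moved the median of all genes by 0.16 in the unstimulated genotype contrast. Counts of 3 reads or fewer, 2.28 to 4.43 normalized counts, were taken as the floor.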
